A study of Mus musculus with 12 samples.

Results

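The T cell receptor (TCR) repertoire of CD8+ T cells from αCSF1R-treated tumors was compared with that from control IgG-treated tumors, using 2 of the 12 TCR libraries of the study. The libraries were taken by their labels: tumor as tissue, and anti-CSF1R antibody or control IgG as treatment. Other libraries came from tumors of mice given IL-10-Fc or the fusion protein BF10, and from spleens and tumor-draining lymph nodes (tdLNs) of all treatments, and they are used here only where they bear on these tumors. The tumors were formed by MTCQ1-2, a mouse oral squamous carcinoma line that carries luciferase, injected into the buccal mucosa of wild-type C57BL/6 mice of 6 to 8 weeks. Treatment began at a tumor volume of 100 mm3, with 3 intraperitoneal doses of 30 mg/kg at intervals of 3 days. The control IgG mice therefore carried the same tumor and were dosed on the same schedule. CD8+ T cells were isolated with magnetic beads and RNA of 3 mice was mixed into 1 library, so each treatment is represented by a single pool. With 1 library per treatment no test between treatments was possible, differences between the libraries cannot be told apart from differences between pools of mice, and all intervals below are 95% Wilson intervals (for fold differences, 95% intervals of a ratio of shares) that cover counting error only.

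An αβ TCR is made by joining a V, a D and a J segment for the β chain and a V and a J segment for the α chain. The V segment encodes the 2 loops that mostly contact the MHC molecule, and the joint itself encodes CDR3, the loop that mostly contacts the peptide. A T cell that recognizes its antigen divides, so that all its daughters carry the same α and β CDR3, and a tumor with a few expanded clones shows a few CDR3s with large shares. Joining trims bases and adds random ones, so the same amino acid CDR3 can be made again in another cell or animal, with the same or with another nucleotide sequence. Anti-CSF1R antibodies block the receptor on which tumor-associated macrophages depend, and the comparison asks how the receptors of tumor CD8+ T cells look after such treatment.

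Depth differed between the libraries. The αCSF1R tumor library held 61965 molecules counted by unique molecular identifiers (UMIs) and the control IgG tumor library 192168, whereas the 8 spleen and tdLN libraries held 238672 to 340888. For the β chain (TRBC) this left 32784 UMIs in 2493 clonotypes against 104036 UMIs in 9466 clonotypes, and for the α chain (TRAC) 23650 UMIs in 2430 clonotypes against 79926 in 9468, a clonotype being a V, a J and a CDR3 nucleotide sequence. The smallest amount taken as measurable, 3 UMIs, was 0.00915% of TRBC and 0.0127% of TRAC UMIs in the αCSF1R library, against 0.00288% and 0.00375% in the control library. The αCSF1R library was also read more deeply per molecule, with 71.1% of its UMIs supported by at least 7 reads against 50.2%. TCR libraries hold no *Cd8a* or *Cd8b*, so the CD8 label could not be checked. Chains of other T cells were rare among the α chains: the *Trav11*–*Traj18* chain of invariant NKT cells had 1 UMI in the αCSF1R and 19 in the control library. The *Trav1*–*Traj33* chain of MAIT cells had 0 and 1.

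The CDR3s that the comparison turns on are given first, as the most abundant nucleotide sequence of each, 5′ to 3′ from the conserved cysteine codon to the conserved phenylalanine or tryptophan codon, as the authors deposited them. The first set holds amino acid CDR3s that were abundant in both tumor libraries, with capitals at the bases that differ from the leading sequence of the other library.
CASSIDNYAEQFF, αCSF1R: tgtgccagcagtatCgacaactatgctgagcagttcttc
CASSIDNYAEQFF, control IgG: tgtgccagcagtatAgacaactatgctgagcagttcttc
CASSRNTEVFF, αCSF1R, encoding 1: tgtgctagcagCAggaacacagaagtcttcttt
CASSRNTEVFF, αCSF1R, encoding 2: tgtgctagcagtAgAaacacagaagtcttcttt
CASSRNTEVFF, control IgG, encoding 1: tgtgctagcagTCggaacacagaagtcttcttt
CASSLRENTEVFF, αCSF1R: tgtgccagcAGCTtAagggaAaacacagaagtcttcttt
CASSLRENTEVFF, control IgG: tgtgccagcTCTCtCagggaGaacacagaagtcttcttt
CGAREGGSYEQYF, αCSF1R: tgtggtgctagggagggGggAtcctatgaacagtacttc
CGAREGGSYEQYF, control IgG: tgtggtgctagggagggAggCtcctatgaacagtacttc
The second set holds leading CDR3s of 1 library that were at 0 in the other, and nothing is marked in them.
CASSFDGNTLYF, β, αCSF1R: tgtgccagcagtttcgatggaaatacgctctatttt
*Trbv13-1*–*Trbj1-2*, 11 residues, β, αCSF1R: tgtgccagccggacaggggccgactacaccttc
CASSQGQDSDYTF, β, control IgG: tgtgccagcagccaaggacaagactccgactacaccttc
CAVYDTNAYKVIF, α, αCSF1R: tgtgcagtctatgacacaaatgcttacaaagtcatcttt
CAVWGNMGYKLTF, α, control IgG: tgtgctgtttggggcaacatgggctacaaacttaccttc

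A few CDR3s filled much of both repertoires, but mostly different ones. For the β chain, the 10 most abundant amino acid CDR3s held 34.0% of αCSF1R UMIs (33.5% to 34.5%) and 31.9% of control IgG UMIs (31.6% to 32.1%). For the α chain they held 34.3% (33.7% to 34.95%) and 22.3% (22.1% to 22.6%). Of the 10 leading β CDR3s of αCSF1R, 8 had no UMI in the control IgG tumor library, and of the 10 of control IgG, 7 had none in the αCSF1R library. For the α chain the counts were 7 and 8 of 10. Over all listed β CDR3s, 2056 of 2298 in αCSF1R and 8336 of 8578 in control IgG were at 0 in the other library. For the α chain these were 1593 of 2074 and 7026 of 7507, so absence was not particular to the leaders. Since an RNA library counts transcripts, more cells of a clone and more TCR mRNA per cell cannot be told apart in these shares.

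In αCSF1R tumors the β repertoire was led by a group of CDR3s of similar size. The largest, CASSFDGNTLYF, used *Trbv15* and *Trbj1-3* and took 5.01% (4.78% to 5.26%), the next, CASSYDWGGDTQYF with *Trbv16* and *Trbj2-5*, took 4.60%, and the tenth took 2.01%. Between them lay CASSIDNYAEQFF at 4.00%, an 11-residue *Trbv13-1*–*Trbj1-2* CDR3 at 3.53%, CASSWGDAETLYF at 3.39%, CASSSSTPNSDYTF at 3.22%, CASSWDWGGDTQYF at 2.95%, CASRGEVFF at 2.69% and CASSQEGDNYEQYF at 2.60%. The order from one to the next was often within counting error: the interval of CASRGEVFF (2.52% to 2.87%) overlapped that of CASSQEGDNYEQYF (2.43% to 2.77%).

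In control IgG tumors 1 CDR3 stood above the others. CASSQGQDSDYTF, with *Trbv5* and *Trbj1-2*, held 11102 UMIs, or 10.7% (10.5% to 10.9%). It had 0 of 32784 UMIs in the αCSF1R library, where its interval reached 0.0117%. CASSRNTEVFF followed at 5.51%, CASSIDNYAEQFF at 4.28% and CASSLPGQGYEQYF at 2.71%, and the tenth, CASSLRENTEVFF, took 1.17%. Of the 10 control IgG leaders, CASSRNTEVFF, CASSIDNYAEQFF and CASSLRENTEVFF were thus also above 1% of UMIs in αCSF1R tumors.

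The α chain gave the same picture with other genes. αCSF1R tumors were led by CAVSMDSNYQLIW (*Trav9n-3* with *Traj33*) at 6.41%, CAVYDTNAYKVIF (*Trav7n-6* with *Traj30*) at 6.0% and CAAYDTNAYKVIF (mainly *Trav10* with *Traj30*) at 4.12%. Control IgG tumors were led by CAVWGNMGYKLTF (*Trav9n-3* with *Traj9*) at 7.72% (7.54% to 7.91%). It had 0 of 23650 UMIs in the αCSF1R library, where its interval reached 0.0162%. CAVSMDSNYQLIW itself had 27 UMIs in the control IgG library, 0.0338%, all from other nucleotide sequences than the leading one of αCSF1R. At the level of 0.1% of UMIs, the αCSF1R library held 75 β CDR3s with 62.0% of UMIs and the control IgG library 74 with 51.2%. Of these, 63 and 68 were at 0 in the other library, no larger parts than over all listed β CDR3s (2056 of 2298 and 8336 of 8578).

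V gene usage of the β chain differed with these leaders. *Trbv16* took 19.5% of αCSF1R UMIs (19.1% to 19.97%) and 8.94% of control IgG UMIs (8.77% to 9.11%), 2.19-fold higher (2.12 to 2.25). *Trbv2* was 3.04-fold higher, at 6.85% against 2.25%, and *Trbv15* was 2.82-fold higher, at 6.59% against 2.34%. *Trbv5* was lower, at 6.63% (6.37% to 6.91%) against 14.01% (13.8% to 14.2%), as were *Trbv12-1* at 1.961% against 6.10%, *Trbv13-2* at 2.71% against 5.46%, *Trbv31* at 0.506% against 1.28% and *Trbv23* at 0.256% against 1.17%. Of 20 *Trbv* genes with at least 1% of UMIs in either library, 3 (15.0%) were more than 2-fold higher in αCSF1R and 5 (25.0%) more than 2-fold lower. *Trbv19*, the second gene of each library, took 18.2% and 13.2%, and *Trbv17* 5.39% and 9.26%. *Trbv3* was 1.51-fold higher in αCSF1R (5.11% against 3.37%). In GRCm38, *Trbv16* lies at chr6:41151740-41152230, *Trbv15* at chr6:41141188-41141658 and *Trbv5* at chr6:41062332-41062803, in the V gene array upstream of the D, J and C segments.

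Single CDR3s carried much of the usage of several of these genes. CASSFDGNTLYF alone made up 76.1% of the *Trbv15* UMIs of αCSF1R tumors, and in control IgG tumors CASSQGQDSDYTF made up 76.2% of *Trbv5*. A *Trbv23*–*Trbj2-2* CDR3 made up 67.9% of *Trbv23* in control IgG, and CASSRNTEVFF 59.5% of *Trbv17* there. *Trbv16* was spread more widely, since its largest CDR3 held 23.5% of its UMIs in αCSF1R and 12.0% in control IgG. When each clonotype was counted once, *Trbv16* was at 14.2% against 11.6%, *Trbv5* at 4.85% against 4.395%, *Trbv15* at 4.29% against 3.99% and *Trbv2* at 3.05% against 1.997%.

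**Figure D1:**
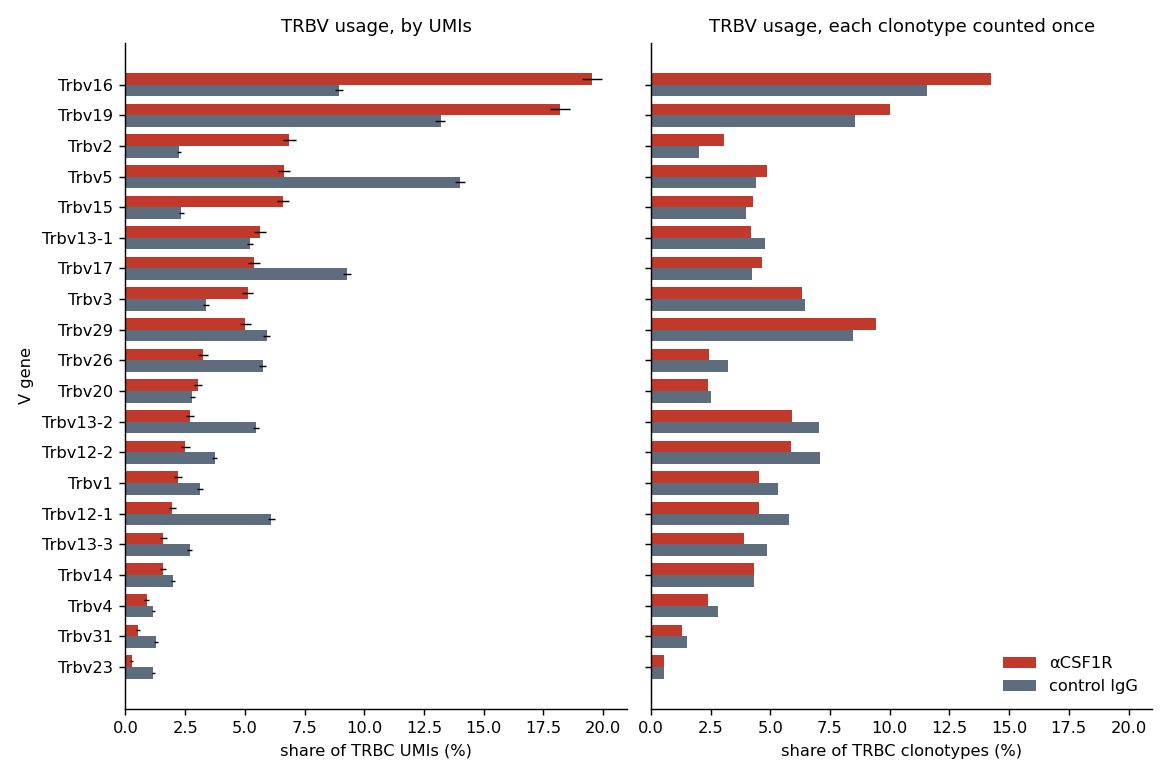
*Trbv* genes with at least 1% of TRBC UMIs in either tumor library, ordered by αCSF1R. The left panel gives the share of TRBC UMIs in percent with 95% Wilson intervals, and the right panel the share of clonotypes, each counted once. αCSF1R is red and control IgG grey, with 1 library each. The gap in *Trbv5* by UMIs (6.63% against 14.01%) shrinks to 4.85% against 4.395% when clonotypes are counted once, and *Trbv16* is the most used gene of αCSF1R in both panels.

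The size of the whole shift was expressed as the share of UMIs that would have to change gene for both usages to match. For *Trbv* it was 27.3% ± 0.593 (95% half-width) by UMIs, 15.7% when the 10 leading CDR3s of each library were left out and 7.73% ± 2.19 when each clonotype was counted once. Between αCSF1R and control IgG spleens it was 3.21% by UMIs and between the tdLNs 4.25%, where counting clonotypes once gave 3.13% and 4.09%. The tdLN pair was itself unlike in reads per molecule. At least 7 reads supported 9.94% of UMIs in the αCSF1R and 38.7% in the control IgG tdLN library. Of the other 5 pairs of tumor libraries, IL-10-Fc against BF10 was at 3.495% by UMIs. The remaining pairs each shared a library with this pair and lay between 26.6% and 32.9%, so 27.3% was not particular to it. The tumor shift was thus several times that of spleen and tdLN by UMIs, with no replicate library to set it against, and the spleen and tdLN libraries were deeper. By clonotypes, counting fewer of them raises the shift, which the half-width does not cover. The αCSF1R and control IgG tumors listed 2493 and 9466 β clonotypes, against 64394 and 79715 in spleens.

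J segments of the β chain moved less than V genes. None of 12 *Trbj* segments was more than 2-fold higher (0%) or lower (0%). *Trbj2-7* took 18.0% and 18.5% of UMIs and *Trbj1-1* 12.8% and 12.7%, in αCSF1R and control IgG. *Trbj1-3* was 1.92-fold higher in αCSF1R (6.98% against 3.63%), with 71.8% of it from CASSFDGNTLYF. *Trbj2-5* was higher (12.6% against 8.22%) and *Trbj1-2* lower (8.82% against 14.5%), with 73.4% of the latter in control IgG from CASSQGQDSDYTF. *Trbj2-2* was 1.94-fold lower, at 1.77% against 3.44%. The *Trbj1* segments, which lie with their own D and C segments upstream of the *Trbj2* cluster, together took 35.7% against 42.6% by UMIs but 34.9% against 33.6% of clonotypes.

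V-J pairs divide V genes and J segments into finer classes, so by construction their summed difference cannot be smaller. Many of those below reached 1% through a single large CDR3 in 1 library. Of 33 β pairs with at least 1% in either library, 15 (45.5%) were more than 2-fold higher in αCSF1R and 12 (36.4%) more than 2-fold lower. *Trbv16*–*Trbj2-5* was 10.1-fold higher (8.82% against 0.876%), *Trbv15*–*Trbj1-3* 79.0-fold (62.0 to 101; 5.16% against 0.0654%), *Trbv13-1*–*Trbj1-2* 31.1-fold, *Trbv16*–*Trbj1-2* 25.0-fold and *Trbv5*–*Trbj1-1* 9.35-fold. In the last 4 pairs 54.9% to 97.6% of αCSF1R UMIs came from their largest CDR3. In the other direction, *Trbv5*–*Trbj1-2* had 0 UMIs in αCSF1R against 11285, or 10.9%, in control IgG, at least 1185-fold lower with 3 UMIs as the floor. *Trbv12-1*–*Trbj1-1* was 109-fold lower, *Trbv12-1*–*Trbj1-6* 42.1-fold, *Trbv26*–*Trbj1-4* 13.8-fold and *Trbv13-1*–*Trbj2-5* 12.4-fold. *Trbv19*–*Trbj2-1*, the pair of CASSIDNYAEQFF, was large in both, at 6.15% (5.89% to 6.41%) and 5.39% (5.26% to 5.53%). *Trbv2*–*Trbj2-7* took 3.67% against 1.35%.

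The shift was larger for the more numerous α chain V genes. For *Trav* it was 34.7% ± 0.691 by UMIs and 14.3% ± 2.21 by clonotypes, against 4.71% and 4.00% in spleens and 6.01% and 5.24% in tdLNs. By clonotypes these values are not on a like footing, since counting fewer clonotypes raises the shift and the half-width does not cover this. The αCSF1R and control IgG tumors listed 2430 and 9468 TRAC clonotypes, against 40731 and 51653 in spleens and 43136 and 46550 in tdLNs. Of 37 *Trav* classes with at least 1% in either tumor library, 9 (24.3%) were more than 2-fold higher in αCSF1R and 10 (27.0%) more than 2-fold lower. The *Trav* array is largely duplicated in C57BL/6 mice, and 20.7% of αCSF1R and 14.1% of control IgG TRAC UMIs fell in classes that the V assignment left between several copies. Summing the copies to families reduced the shift to 20.4%.

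In the 9 *Trav* classes that were more than 2-fold higher in αCSF1R, the largest CDR3 made up 46.2% to 96.95% of the class. *Trav7-1* was 10.4-fold higher (8.42 to 12.8; 1.52% against 0.146%), with 87.7% of it from a single CDR3, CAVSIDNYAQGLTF. *Trav11*/*Trav11d* was 9.17-fold higher (1.45% against 0.158%), with 92.7% from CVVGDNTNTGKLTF, a *Traj27* chain and so not the NKT chain. *Trav15-2-dv6-2* was 6.83-fold, *Trav7n-6* 6.60-fold (6.28% against 0.952%) and *Trav15n-2* 3.87-fold higher. *Trav12n-2* took 5.76% against 1.56%, *Trav7d-2* 6.37% against 2.40% and *Trav10* 5.51% against 2.46%. Lower in αCSF1R were *Trav6-4*, 17.0-fold (0.161% against 2.72%), *Trav7d-4*, 13.8-fold, *Trav7n-5*, 6.60-fold, *Trav13n-2*, 5.16-fold, and *Trav5d-4*, 4.62-fold. Single CDR3s were large in control IgG here too. They made up 98.45% of *Trav6-4*–*Traj23*, 96.5% of *Trav7d-4*–*Traj32*, 96.2% of *Trav7n-5*–*Traj21*, 70.9% of *Trav13n-2*–*Traj33* and 93.2% of *Trav5d-4*–*Traj53*. Summed over its copies, the *Trav5* family was at 3.80% against 5.85%. *Trav9n-3* was the most used gene of both libraries, at 8.00% (7.66% to 8.35%) and 9.09% (8.89% to 9.29%), but joined to different J segments. Its largest CDR3 was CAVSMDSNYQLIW in αCSF1R (79.4% of its UMIs) and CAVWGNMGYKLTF in control IgG (84.9%).

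That split showed in *Traj* usage. *Traj33* took 14.3% of αCSF1R and 4.75% of control IgG UMIs and *Traj30* 13.4% against 5.05%, while *Traj9* took 1.62% against 11.1%. *Traj6* was 5.60-fold higher in αCSF1R (4.02% against 0.717%). *Traj28* was 2.29-fold and *Traj53* 2.09-fold lower. Of 30 *Traj* segments, 3 (10%) were more than 2-fold higher and 3 (10%) lower. *Traj33* lies at chr14:54185358-54185414 and *Traj9* at chr14:54209393-54209450, nearer to the constant gene. α rearrangement proceeds from the distal towards the proximal J segments. The distal group, *Traj58* to *Traj30*, took 59.1% (58.5% to 59.7%) of αCSF1R UMIs and 46.6% (46.3% to 46.9%) of control IgG UMIs, but 50.4% and 50.8% of clonotypes.

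Among the α pairs, *Trav9n-3*–*Traj33* was 273-fold higher in αCSF1R (178 to 420; 7.17% against 0.0263%), and *Trav9n-3*–*Traj9* had 2 UMIs in αCSF1R against 6331, or 7.92%, in control IgG, a ratio of 0.00107 (0.000267 to 0.00427). Of 22 α pairs with at least 1% in either library, 13 (59.1%) were more than 2-fold higher and 8 (36.4%) more than 2-fold lower. In the library where a pair was higher, its largest CDR3 made up 70.9% to 99.0% of the pair. Most thus entered this list through a single large CDR3 of 1 library, so passing 2-fold was largely set by the choice of pairs. *Trav7n-6*–*Traj30* took 6.15% against 0.218%, *Trav10*–*Traj30* 3.90% against 0.209% and *Trav7d-2*–*Traj33* 3.80% against 0.0913%. *Trav15n-2*–*Traj48* and *Trav15-2-dv6-2*–*Traj48* had no UMI in control IgG. With control IgG set at the floor of 3 UMIs they were 587-fold and 441-fold higher, which again are not lower bounds. The same 15-residue CDR3 made up 97.7% of either pair, so a single chain divided between these similar V genes by the assignment cannot be told apart from 2 chains. *Trav6-4*–*Traj23*, *Trav16n*–*Traj48*, *Trav7d-4*–*Traj32* and *Trav7n-5*–*Traj21* had no UMI in αCSF1R. With αCSF1R set at the same floor they were 198-fold, 141-fold, 134-fold and 120-fold lower, again not as lower bounds. *Trav5d-4*–*Traj53* was lower but present, at 0.579% against 3.09%. Its main CDR3 of control IgG was mainly assigned to the joined class *Trav5-4*/*Trav5d-4*/*Trav5n-4* in αCSF1R, with the same leading nucleotide sequence. Assignment and usage can therefore not be told apart in this gap. That CDR3 itself was at 0.803% against 2.97%, and the *Trav5* family at 3.80% against 5.85%. *Trav6d-6*–*Traj2* was the only one of the 22 within 2-fold, at 0.880% against 1.06%, and its main CDR3 of control IgG, with 17 residues, was at 0 in αCSF1R.

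CDR3 length differed in shape more than in mean. The mean β length by UMIs was 13.53 residues in αCSF1R and 13.58 in control IgG, a difference of -0.0542 ± 0.0293 (95% half-width), and the mean α length was 13.60 and 13.77, a difference of -0.176 ± 0.0197. β CDR3s of 14 residues took 34.9% against 26.8% of UMIs and those of 13 residues 21.2% against 28.1%. α CDR3s of 13 residues took 39.5% (38.8% to 40.1%) against 28.8% (28.5% to 29.1%), where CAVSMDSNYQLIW, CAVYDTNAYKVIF and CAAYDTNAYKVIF belong, and those of 15 residues 13.2% against 17.9%. With each clonotype counted once, 13-residue α CDR3s were at 25.3% and 24.2%. β CDR3s of 9 residues, the length of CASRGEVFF, took 2.76% against 0.0558%. The sign of the mean difference was not stable. Without the 10 leaders of each library the β difference was 0.163 ± 0.0398. Over CDR3s of at most 30 residues it was -0.0174 ± 0.0196, an interval that includes 0. Counting each clonotype once gave 0.0600 ± 0.0821 for the α chain, which also includes 0.

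**Figure D2:**
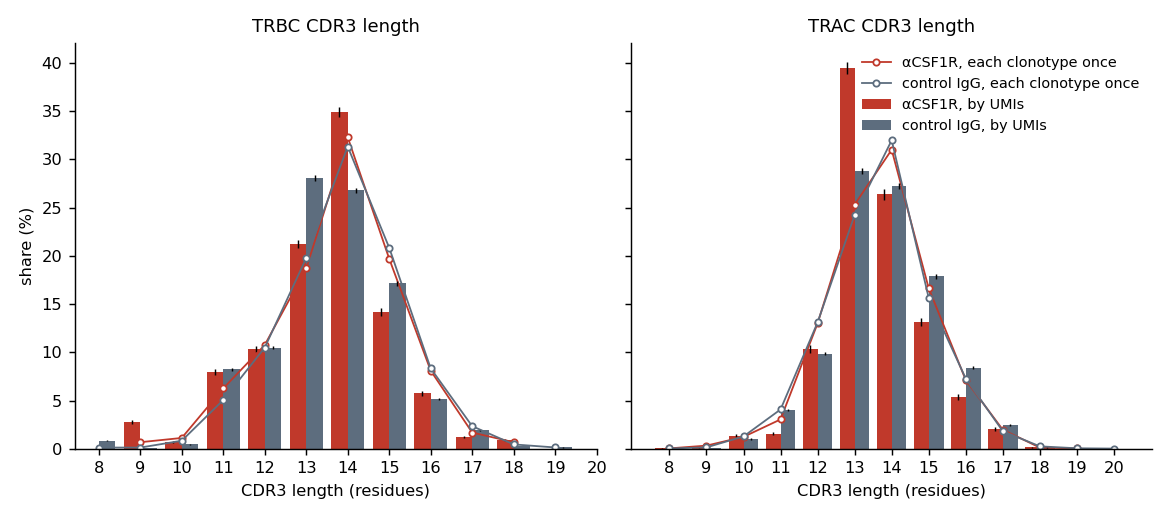
Share of UMIs (bars, percent, with 95% Wilson intervals) and of clonotypes counted once (lines) by CDR3 length in residues, for TRBC (left) and TRAC (right). αCSF1R is red and control IgG grey. The bars part at 13 and 14 residues for TRBC (21.2% against 28.1% and 34.9% against 26.8%) and at 13 residues for TRAC (39.5% against 28.8%), while the lines lie close together.

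Some amino acid CDR3s were nevertheless found in both tumor libraries. For the β chain 242 were shared, 10.5% of the 2298 of αCSF1R and 2.82% of the 8578 of control IgG, and they held 17.0% (16.6% to 17.4%) and 13.7% (13.5% to 13.9%) of UMIs. For the α chain 481 were shared, 23.2% of 2074 and 6.41% of 7507, with 33.0% and 13.8% of UMIs. At the αCSF1R depth, the control IgG library would have listed 6178 β CDR3s and shared 198 of them. Between the spleens, 20.7% of the αCSF1R and 17.2% of the control IgG β list was shared, and between the tdLNs 14.6% and 28.0%. These shares rise with the depth of the library searched, which differed between tissues.

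Most shared β CDR3s were encoded differently in the 2 libraries. Only 42 of the 242 (17.4%) had a nucleotide sequence in common, against 201 of 481 (41.8%) α CDR3s. Counting V, J and nucleotide sequence, 34 β and 110 α clonotypes were in both libraries, with 2.73% and 2.80% of β UMIs and 4.01% and 4.41% of α UMIs. The 10 leading αCSF1R clonotypes of either chain had 0 UMIs in the control IgG library, and so had 9 of the 10 control IgG ones in αCSF1R. In each chain the remaining control IgG clonotype was listed in αCSF1R, for the α chain with 172 UMIs.

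**Figure D3:**
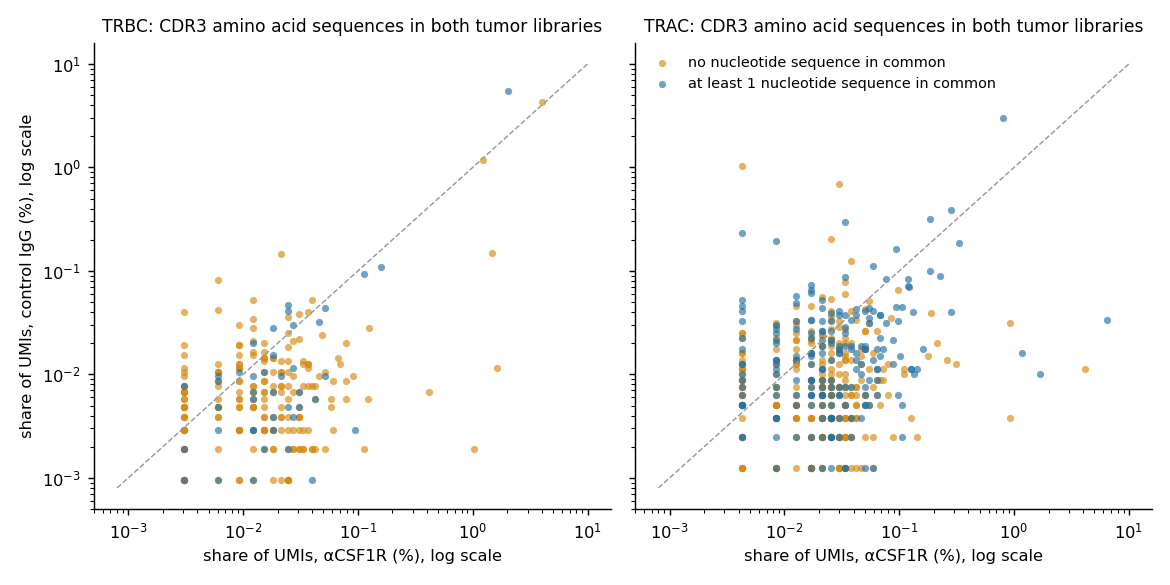
Each point is an amino acid CDR3 listed in both tumor libraries, at its share of UMIs in αCSF1R (x axis) and control IgG (y axis), in percent on log scales, for TRBC (left, 242) and TRAC (right, 481). Blue points have at least 1 nucleotide sequence in common and orange points have none, and the dashed line marks equal shares. For TRBC, the points above 1% in both libraries are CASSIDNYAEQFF and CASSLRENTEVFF in orange and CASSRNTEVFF in blue.

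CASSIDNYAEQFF led the shared β CDR3s when these were ranked by the smaller of their 2 shares, at 4.00% (3.79% to 4.21%) and 4.28% (4.15% to 4.40%), and used *Trbv19* and *Trbj2-1* in each. The sequences printed above differ by 1 base, in the last position of the isoleucine codon. Each library had its own version, which made up 99.5% of the CDR3's UMIs in αCSF1R and 99.7% in control IgG, and no nucleotide sequence was common to both. How many of the 3 mice of a pool carried it was not measured. It was listed in 6 of the 10 other libraries, with at most 9 UMIs.

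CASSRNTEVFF had several encodings in each library, which could not be assigned to single mice of a pool. It used *Trbv17* and *Trbj1-1* and took 2.01% (1.87% to 2.17%) of αCSF1R and 5.51% (5.37% to 5.65%) of control IgG UMIs. In αCSF1R, 3 encodings had at least 10 UMIs, and in control IgG 8 did. Encodings 1 and 2 of αCSF1R had 265 and 233 UMIs, and encoding 1 of control IgG had 1843. Encoding 2 of αCSF1R had 924 UMIs in control IgG. The sequences common to both libraries held 98.2% of its UMIs in αCSF1R and 46.2% in control IgG. It was listed in all 10 other libraries, with 3 to 466 UMIs, highest in the IL-10-Fc tumor library (0.358%). Encoding 2 left 0 bases unmatched to the germline V and J ends.

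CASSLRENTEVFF, at 1.23% and 1.17%, used *Trbv3* in αCSF1R and *Trbv12-1* in control IgG, with 6 of 39 bases different. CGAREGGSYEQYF used *Trbv20* and *Trbj2-7* in both, with 2 bases different, and took 1.48% against 0.148%. The main shared α CDR3 was a 15-residue *Traj53* chain at 0.803% against 2.97%, mainly from the *Trav5-4* copies, with the same leading nucleotide sequence in both libraries and none of its bases unmatched to germline. Of the 5 β CDR3s above 0.1% in both libraries, 3 had no nucleotide sequence in common, and of the 4 such α CDR3s, 0.
*Traj53* chain, αCSF1R and control IgG: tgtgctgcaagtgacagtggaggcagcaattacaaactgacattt

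Shared CDR3s lay closer to germline than the rest. The bases that matched neither the germline V nor the germline J end, which include D bases in the β chain, had a median of 8 per shared β clonotype and 10 per other β clonotype in each library, and of 2 and 4 for the α chain. Of shared α clonotypes, 25.0% in αCSF1R and 26.8% in control IgG had no unmatched base, against 5.92% and 8.04% of the others. Of the 242 shared β CDR3s, 229 (94.6%) were also listed in at least 1 of the 8 spleen and tdLN libraries, against 52.8% of those in αCSF1R tumors alone and 56.1% of those in control IgG tumors alone. For the α chain this was 479 of 481 (99.6%), 60.6% and 68.6%.

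Several abundant CDR3s differed by 1 residue from another abundant CDR3. Among β CDR3s with at least 0.1% of UMIs, there were 8 such pairs of 2775 possible within αCSF1R tumors, 4 of them with the same V and J. Within control IgG there were 3 of 2701, all with the same V and J, and between the libraries 7 of 5550, 4 with the same V and J. Leaving out clonotypes 1 base from another with at least 10 times the UMIs, which removed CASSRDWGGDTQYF, gave 6 pairs within αCSF1R, 2 of them with the same V and J, and the other numbers of pairs, α chain included, did not move. For the α chain there were 14, 9 and 16 pairs, of which 0, 1 and 5 shared V and J. In αCSF1R tumors, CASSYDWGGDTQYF (4.60%), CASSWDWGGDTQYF (2.95%) and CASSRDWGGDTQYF (0.189%), all *Trbv16*–*Trbj2-5*, differed at the fifth residue. The first pair is printed with capitals at the 3 bases where they differ; the leading sequence of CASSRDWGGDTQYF was 1 base from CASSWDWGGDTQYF.
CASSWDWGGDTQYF, αCSF1R: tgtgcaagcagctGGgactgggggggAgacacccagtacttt
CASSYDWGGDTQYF, αCSF1R: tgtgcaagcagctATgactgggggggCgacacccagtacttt
A *Trbv2*–*Trbj2-7* set spanned both tumors: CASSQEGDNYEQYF at 2.60% in αCSF1R and 0 in control IgG, and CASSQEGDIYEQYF at 0.658%, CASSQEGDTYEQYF at 0.260% and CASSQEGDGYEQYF at 0.159% in control IgG. The ninth residue varied, and the first 2 differed by 1 base, in capitals.
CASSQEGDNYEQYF, αCSF1R: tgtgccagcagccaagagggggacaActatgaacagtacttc
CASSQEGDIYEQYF, control IgG: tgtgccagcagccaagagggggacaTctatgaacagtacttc
Among the α leaders, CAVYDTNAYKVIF and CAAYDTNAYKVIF of αCSF1R tumors shared *Traj30* and differed in the residue after cysteine and alanine, with 2 bases in capitals.
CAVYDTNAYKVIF, αCSF1R: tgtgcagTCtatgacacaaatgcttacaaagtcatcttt
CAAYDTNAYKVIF, αCSF1R: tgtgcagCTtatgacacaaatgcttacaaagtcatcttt
The control IgG tumors had a neighbour of both, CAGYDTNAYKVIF with *Trav7n-6* and *Traj30*, at 0.206%.

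The leading β nucleotide sequences of each tumor library were searched in the 10 other libraries and the opposite tumor library. Of the 10 of αCSF1R tumors, 7 were listed in the αCSF1R tdLN library, with 122 UMIs or 57.9 per 100000 TRBC UMIs, of which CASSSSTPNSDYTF had 69 and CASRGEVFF 22. In the other 10 libraries 0 or 1 of the 10 was listed, at 0 to 4.32 per 100000. Of the 10 of control IgG tumors, 6 were listed in the control IgG tdLN library, with 78 UMIs or 62.7 per 100000, of which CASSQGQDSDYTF had 56. Elsewhere 0 to 2 of the 10 were listed, at 0 to 7.69 per 100000. The β leaders of each tumor library were therefore most frequent in the tdLN library of their own treatment, at shares far below those in the tumor, and the labels do not say whether the tumor and tdLN pools came from the same mice. For the α chain, the αCSF1R leaders were at 44.1 per 100000 in the αCSF1R tdLN and 7.30 to 21.4 elsewhere, whereas the control IgG leaders were at 21.65 in the control IgG tdLN, below 727 in the αCSF1R tumor library (the *Traj53* chain alone, with 172 UMIs) and 165 in the IL-10-Fc tumor library, and at 2.53 to 17.9 elsewhere.

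**Figure D4:**
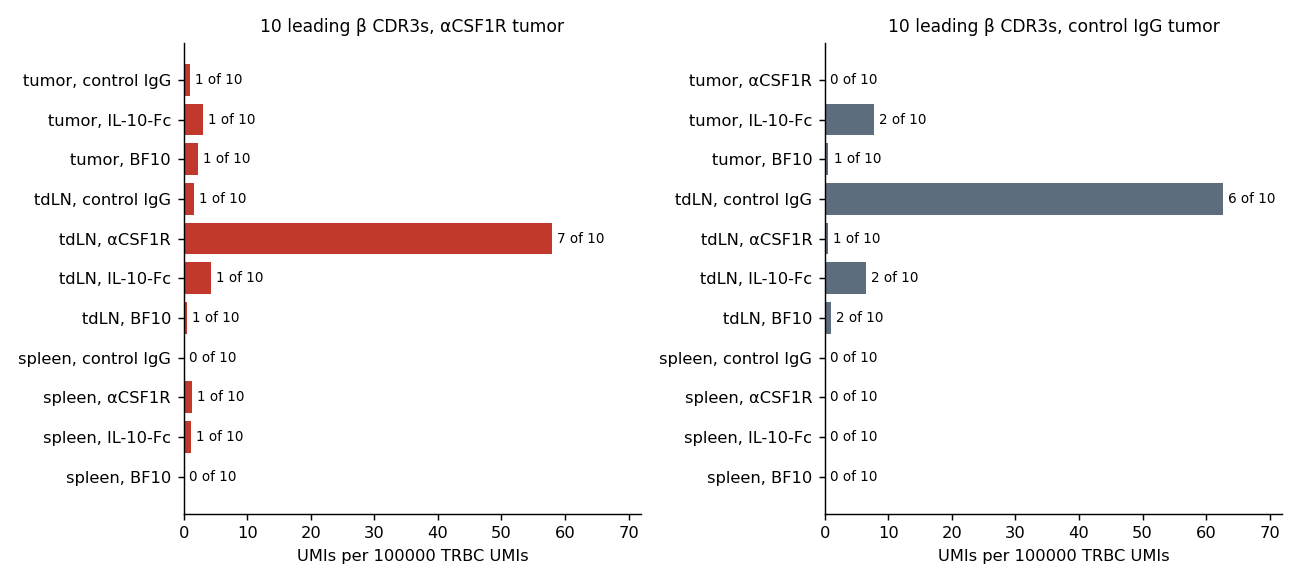
UMIs per 100000 TRBC UMIs of the leading nucleotide sequences of the 10 most abundant β CDR3s of the αCSF1R tumor library (left, red) and the control IgG tumor library (right, grey), in each of the 11 other libraries, with the number of the 10 that were listed there. The longest bar is the tdLN library of the same treatment in both panels, 57.9 with 7 of 10 for αCSF1R and 62.7 with 6 of 10 for control IgG.

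γδ T cell chains took a larger share of the αCSF1R tumor library. The γ chain (TRGC) made up 7.15% of its UMIs (6.95% to 7.36%) against 3.41% (3.33% to 3.49%), and the δ chain (TRDC) 1.77% against 0.859%. In the IL-10-Fc and BF10 tumor libraries TRGC took 0.495% and 0.397%. The δ genes lie inside the α locus and are lost when an α chain is joined, whereas αβ T cells can also carry a joined γ gene. The α and β shares above were taken within their own chain and do not include γ or δ UMIs.

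The δ chain was dominated by *Trdv4*, which took 83.0% (80.6% to 85.1%) of 1098 UMIs in αCSF1R and 51.0% (48.6% to 53.4%) of 1651 in control IgG. A 17-residue *Trdv4*–*Trdj2* chain alone held 63.8% (61.0% to 66.6%) and 31.8% (29.6% to 34.1%). *Trav13-4-dv7* took 3.83% against 17.0%, *Trav15d-1-dv6d-1* 2.28% against 6.60% and *Trdv2-2* 4.28% against 6.12%. For the γ chain, *Trgv2* led with 63.6% and 77.5%, and *Trgv5* was 2.47-fold higher in αCSF1R, at 27.3% (26.0% to 28.6%) against 11.1% (10.3% to 11.8%). *Trgv5* with *Trdv4* is the invariant receptor of dendritic epidermal T cells, γδ cells of the skin. *Trgv3* took 5.53% against 1.62%.

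**Figure D5:**
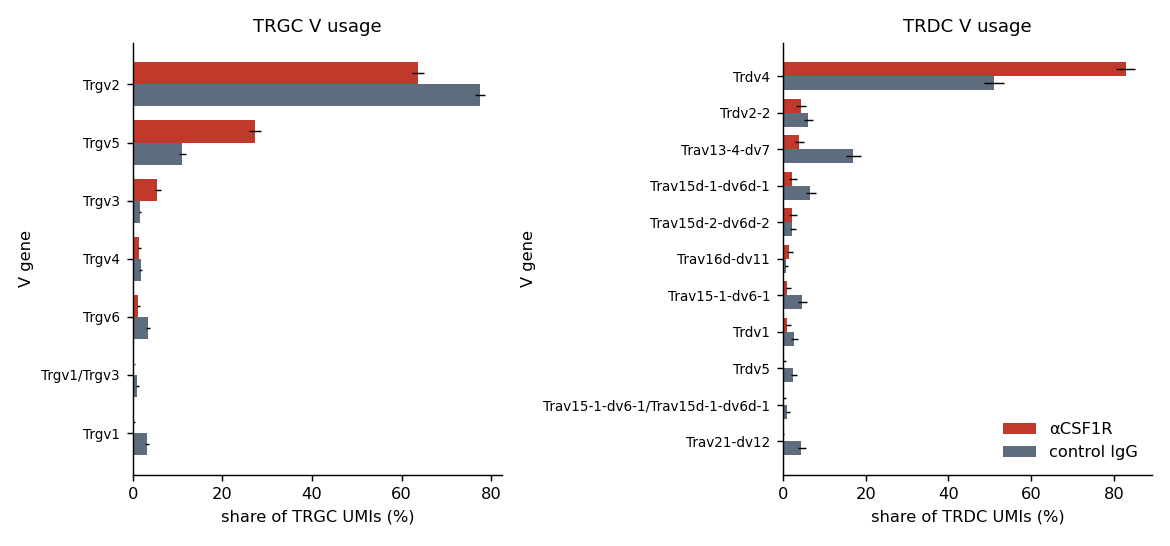
V genes with at least 1% of TRGC UMIs (left) or TRDC UMIs (right) in either tumor library, as percent of the UMIs of the chain with 95% Wilson intervals. αCSF1R is red and control IgG grey, with 1 library each. *Trgv5* (27.3% against 11.1%) and *Trdv4* (83.0% against 51.0%) are higher in αCSF1R, and *Trgv2* (63.6% against 77.5%) and *Trav13-4-dv7* (3.83% against 17.0%) are lower.

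The invariant γ CDR3, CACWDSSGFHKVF, made up 26.1% (24.8% to 27.4%) of γ UMIs in αCSF1R and 13.2% (12.4% to 14.1%) in control IgG. It occurs with *Trgv5* and with *Trgv6*, the gene of γδ T cells in several other tissues, and the 2 forms differ by 1 base, in capitals.
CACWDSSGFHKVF, *Trgv5*: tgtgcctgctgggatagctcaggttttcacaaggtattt
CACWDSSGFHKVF, *Trgv6*: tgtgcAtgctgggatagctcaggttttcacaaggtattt
*Trdv4*–*Trdj2* chain, αCSF1R and control IgG: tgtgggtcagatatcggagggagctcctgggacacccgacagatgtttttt
In αCSF1R tumors *Trgv5* carried 1101 of its UMIs and *Trgv6* 57, and in control IgG tumors 688 and 179. In the tdLN libraries the same CDR3 took 33.5% to 49.1% of γ UMIs, with *Trgv6* in 2558 of 2592 UMIs in control IgG and 4778 of 4882 in αCSF1R. Both forms were thus listed in tumors and nodes, but the predominant form differed. In spleens it took 2.44% to 4.12%. For comparison with the αβ chains, 35 amino acid γ CDR3s were shared by both tumors, with 63.5% of αCSF1R and 38.9% of control IgG γ UMIs, and 28 of them had a nucleotide sequence in common.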

How the data were processed

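TCR libraries of MACS-isolated CD8+ T cells were prepared by the authors from 100 ng of RNA mixed from 3 mice, with the QIAseq immune repertoire kit and a 12-base UMI, sequenced on a NextSeq instrument and processed in the Qiagen data portal. The deposited counts are UMIs per clonotype (chain, V, J and CDR3), with no normalization, and give UMIs supported by at least 3 and by at least 7 reads, of which the former were used. The submitters' processing notes name mm10. The aligner and germline reference are not given in the sources used here. Samples were grouped by their labels, with 1 library per group, so no test was run. 0 columns of per-sample values lacked a sample.

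UMIs were summed by V, J, V-J pair, CDR3 length and amino acid CDR3 within each chain. Joined V assignments were kept as classes of their own. Shares have 95% Wilson intervals, and a floor of 3 UMIs per library was used where a library was at 0. PCR copies were collapsed by UMI in the deposited tables. A class was counted as higher or lower past 2-fold, among those with at least 1% of UMIs in either library. The usage shift is the summed excess of 1 library over the other. Expected numbers at the αCSF1R depth are hypergeometric. For the junction, clonotypes 1 base from another with 10 times the UMIs were left out, and each CDR3 was matched from both ends to germline V and J ends of the GRCm38 GENCODE annotation, where 61 of 63 named genes were found. The genes named were the 5 largest of each library and the 5 largest differences in each direction per list, and the CDR3s named were the 10 leaders of each library and the 10 leading shared ones. These members and lists were chosen with earlier results of these data known. For the γ and δ chains, V genes with at least 5% and the 3 leading CDR3s of each library were named. The smaller CDR3s of the neighbour sets, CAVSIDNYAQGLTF, *Trav6d-6*–*Traj2* and *Trgv6* were named after their values were seen. A nucleotide sequence among the shared CDR3s is not reported here.

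Depth was 61965 and 192168 UMIs, and floors are given beside the results. Alternatives were UMIs with at least 7 reads, clonotypes with at least 2 UMIs, each clonotype counted once, leaving out the 10 leaders, other ways to treat joined V classes and other definitions of a CDR3. Python 3.11.15, pandas 2.3.3, numpy 2.4.6, scipy 1.17.1 and matplotlib 3.10.9 were used, and the calculations were tested on simulated data.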

Additional observations from a re-analysis of the deposited data

How the results depend on the processing

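Of 54 alternative values, 29 were counted as unchanged, 23 moved and 2 reversed. Unchanged meant within the counting error of the main value, or, for numbers of shared CDR3s, within a set fold of it. The *Trbv* shift of 27.3% was 26.5% with UMIs of at least 7 reads, 15.7% without the 10 leading CDR3s of each library and 7.73% with each clonotype counted once. The *Trav* shift of 34.7% was 23.9% without the leaders, 14.3% with clonotypes counted once, 32.9% with joined classes divided equally among their genes and 20.4% by family. Shared β CDR3s went from 242 to 105 when V and J had to match and to 34 when the nucleotide sequence had to match too, and shared α CDR3s from 481 to 185 and 110. The β length difference of -0.0542 residues reversed to 0.163 ± 0.0398 without the leaders, and was -0.160 ± 0.122 with clonotypes counted once. Over CDR3s of at most 30 residues it was -0.0174 ± 0.0196, an interval that includes 0. The α length difference of -0.176 was -0.0434 without the leaders. With clonotypes counted once it was counted as reversed by its sign, at 0.0600 ± 0.0821, an interval that includes 0. In the αCSF1R library the β share of the 10 leaders (34.0%) was 33.5% at 7 reads, 34.6% over clonotypes of at least 2 UMIs and 33.4% by nucleotide clonotype, and the α share (34.3%) was 35.1% and 31.7% under the latter 2 settings. In the control IgG library the same 2 settings gave 32.4% and 28.15% against 31.9% for β, and 22.9% and 21.8% against 22.3% for α. The limit of 30 residues and the removal of 1-base satellites were chosen after seeing the data. The gap between counting UMIs and counting clonotypes follows from the construction of these settings, and for the other moves the cause was not tested.

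No paired analysis was possible because each treatment has 1 library. The spread between mice is unknown, since RNA of 3 mice was mixed. The αCSF1R library held fewer UMIs, and for a CDR3 at 0 there the interval reached 0.0117% of TRBC or 0.0162% of TRAC UMIs. Duplicated *Trav* genes cannot always be told apart.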

Other observations

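Several β CDR3s of the CASSLELGG group were abundant: in αCSF1R tumors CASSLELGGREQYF took 1.03% and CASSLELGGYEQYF 0.412%, and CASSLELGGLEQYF was in both tumors, at 0.159% for αCSF1R and 0.110% for control IgG. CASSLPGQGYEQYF, at 2.71% of control IgG tumors and 0 in αCSF1R tumors, was listed in all 10 other libraries with 2 to 22 UMIs. A 15-residue *Trbv26*–*Trbj1-4* CDR3 with 1.47% in control IgG tumors was also listed in all 10, with 564 UMIs (0.433%) in the IL-10-Fc tumor library and 0 in the αCSF1R tumor library.

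A 15-residue *Trgv2* γ CDR3 took 12.6% and another 8.48% of TRGC UMIs in control IgG tumors, and both were at 0 in αCSF1R tumors, whereas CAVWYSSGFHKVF, also *Trgv2*, took 9.90% in αCSF1R and 3.86% in control IgG tumors.

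Clonotypes 1 base away from another with at least 10 times the UMIs made up 15.1% of αCSF1R and 7.73% of control IgG β clonotypes, with 1.92% and 1.24% of β UMIs. CDR3s of over 30 residues were rare, with 1 β clonotype of 7 UMIs in the αCSF1R and 13 of 67 UMIs in the control IgG library.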
